A study of Mus musculus with 13 samples.

Results

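The mammalian unfolded protein response and the folding and degradation machinery it controls were followed through 40 genes: 15 chaperones and folding enzymes of the endoplasmic reticulum (ER), 9 genes of ER-associated degradation, 8 stress sensors and transcription factors, 5 further genes switched on by ATF4 or related stress signals, and 3 genes of the protein translocation channel and the UFM1 modifier. They were chosen by gene symbol as genes of this pathway, with earlier results of these data known, and all 40 were found among the 46958 genes of the count table. RNA was read from kidney glomeruli, the filtering units of the kidney, which had been purified with magnetic beads from mice of 6 months on a mixed C57/BL6, 129/SV and BALB/c background. There were 4 libraries of the genotype kFRA (LCDD), named for light chain deposition disease, 4 of DH-LMP2A and 5 of wild type (WT). The labels do not describe DH-LMP2A and do not say whether the LCDD mice also carry it, and they name no treatment. Each library pooled 3 mice, except WT replicates 3, 4 and 5, which were 1 mouse each. The series title asks how monoclonal light chains act on the glomerulus, and the members are given here for LCDD against each of the other genotypes and for DH-LMP2A against WT.

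The ER folds secreted and membrane proteins with chaperones such as BiP (Hspa5) and with protein disulfide isomerases, and it sends misfolded chains back to the cytosol for destruction. When misfolded protein accumulates, the sensors IRE1, ATF6 and PERK start the unfolded protein response: IRE1 splices Xbp1, ATF6 is cut by the protease encoded by Mbtps1, and PERK slows translation while favouring ATF4. ATF4 is also raised by amino acid shortage through other kinases, and it drives amino acid synthesis and transport genes. In the glomerulus, podocytes and mesangial cells secrete much of the basement membrane and matrix and depend on this pathway for protein quality control.

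Total counts ran from 18604929 to 26544422 in LCDD, from 17274426 to 26143996 in DH-LMP2A and from 16687509 to 30587890 in WT. Levels are CPM, counts scaled to a common library size with TMM factors, and the members together held 6649 to 10278 CPM of a library. The sample titles carry a 6-digit code, of unstated meaning, that libraries of different genotypes share. The 4 codes are called A to D here, in ascending order, and WT has no library under code B. LCDD and DH-LMP2A replicates 1 to 4 are codes A to D, WT replicate 1 is code A, WT replicate 2 code C and WT replicates 3 to 5 code D. The 12 podocyte markers summed to 7360 to 31669 CPM in LCDD, 16371 to 32387 in DH-LMP2A and 15387 to 34712 in WT. The 12 mesangial markers summed to 5110 to 9155, 3952 to 4666 and 4228 to 5173 CPM, and 26 cell cycle genes to 254 to 442, 156 to 199 and 150 to 184 CPM, in the same order. Of the cell cycle genes 14 of 26 were higher in LCDD than in DH-LMP2A and 17 of 26 than in WT (edgeR, adjusted p under 0.05). The 18 proximal tubule markers ranged from 162 to 4628 CPM. The 4 Y-linked genes counted summed to 18.0 to 220 CPM in LCDD, 68.3 to 223 in DH-LMP2A and 0 to 27.0 in WT. In bulk RNA, fewer cells of a type and less RNA per cell cannot be told apart.

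Promoter windows show which members carry the short DNA elements known from this pathway. The window was the 250 bases before the RefSeq transcript start on GRCm38.p6, searched on both strands, and 35 of the 40 members had an entry (Sec61a1, Derl1, Manf, Atf6 and Hyou1 are named only). The ER stress element, spelled CCAAT, then 9 bases of any kind, then CCACG, is read by ATF6 together with the factor NF-Y. It was matched in 9 of 35 members (25.7%) and in 35 of 27018 genes of the RefSeq table (0.130%). The 9 members were Hspa5, Hsp90b1, Calr, Canx, Pdia6, Dnajc3, Creld2, Derl3 and Syvn1. The related ERSE-II, spelled ATTGG, 1 base of any kind and CCACG, was matched in Herpud1 alone among members and in 10 of 27018 genes (0.0370%). The amino acid response element bound by ATF4, searched as TGATGNAA, was matched in Asns, Atf3, Chac1 and Herpud1 (11.4% of members, 3.90% of genes). The XBP1 element TGACGTGG was matched in 0 of 35 members and 0.603% of genes. The CCAAT letters alone, which overlap both ER stress elements, stood in 74.3% of members and 37.5% of genes. The matches of the members that the results turn on are printed 5′ to 3′ on the gene's strand with the matched letters in capitals. Where a match lies on the opposite strand the capitals are its reverse complement.
Hspa5: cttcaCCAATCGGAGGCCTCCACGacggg
Hsp90b1: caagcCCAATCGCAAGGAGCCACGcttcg
Hsp90b1: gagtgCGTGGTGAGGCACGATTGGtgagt
Creld2: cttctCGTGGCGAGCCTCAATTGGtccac
Derl3: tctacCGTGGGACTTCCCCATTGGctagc
Herpud1: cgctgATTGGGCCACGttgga
Herpud1: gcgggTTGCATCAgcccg
Asns: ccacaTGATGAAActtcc
Chac1: tgccgTTGCATCActcct
Atf3: cgcacTTGCATCAccaag

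On GRCm38 the Hspa5 element lies at chr2:34772020-34772048 on the plus strand, with the matched letters 65 to 47 bases before the start. Hsp90b1, a gene of the minus strand, holds an element on that strand at chr10:86705633-86705661 and one on the plus strand at chr10:86705528-86705556. The Creld2 element lies at chr15:88819515-88819543 and that of Derl3 at chr10:75893237-75893265, both on the minus strand of plus-strand genes. Herpud1, a plus-strand gene, carries its ERSE-II at chr8:94386372-94386392 on the plus strand and its ATF4-type match at chr8:94386312-94386329 on the minus strand. The Asns match lies at chr6:7693220-7693237 on the minus strand, which is the gene's own, 23 to 16 bases before the start. The matches of Chac1, at chr2:119351044-119351061 on the minus strand, and Atf3, at chr1:191183431-191183448 on the plus strand, lie opposite to their genes. A match describes the letters of the window and was not set against any binding data.

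Asns was the one member called between LCDD and either other genotype, and it was higher in LCDD. Against DH-LMP2A, 1 of the 40 members, Asns, was called at an adjusted p under 0.05 (edgeR quasi-likelihood test with Benjamini-Hochberg adjustment over 16738 genes), where 2% of all genes were called. Against WT, Asns was again the 1 member called, where 1.84% of all genes were called. Between DH-LMP2A and WT, 0 members were called by edgeR and 0 by DESeq2, with 2 members at an unadjusted p under 0.05, where edgeR called 0.627% of all genes. The members' median log2 fold change was 0.04 for LCDD against DH-LMP2A, 0.09 for LCDD against WT and 0.00 for DH-LMP2A against WT. Over all genes tested those medians were -0.01, 0.01 and 0.00. At an unadjusted p under 0.05 there were 2 members in the first comparison and 3 in the second, where 13.1% and 12% of all genes reached that level, and 12.5% did between DH-LMP2A and WT.

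Between LCDD and DH-LMP2A, deviations from the genotype means correlated at 0.42 on average under the same title code. Other pairs averaged -0.14. That negative mean follows from the positive one, because deviations cancel within each genotype, and is not separate evidence of pairing. Not every library correlated best with its own code: LCDD replicate 2 reached 0.52 with DH-LMP2A replicate 1 and 0.15 with DH-LMP2A replicate 2. The code was taken as a possible pairing, and LCDD against DH-LMP2A was also fitted with it as a block. That fit called 3 members, Asns higher and Edem2 and Creb3l2 lower in LCDD, where 6.1% of all genes were called. At an unadjusted p under 0.05 it held 7 members, where 22.5% of all genes did. No other member passed in either fit of this comparison. With the block but without the 3 single-mouse WT libraries, which keeps all 8 libraries compared, Asns was the 1 member called. Edem2 and Creb3l2 then had edgeR adjusted p of 0.112 and 0.128. Pairing of the WT libraries by code was less clear: same-code correlations averaged 0.21 with LCDD and 0.30 with DH-LMP2A, lowest -0.16 in each. The block is given as an alternative in the comparisons with WT, where it changed which members passed. In LCDD against WT it called Hspa5, Sdf2l1, Manf and Herpud1 but not Asns, 4 of 40 members, where 3.2% of all genes were called. In DH-LMP2A against WT it called Herpud1, where 3.36% of all genes were called. Unless the block is named, a test is from the fit without it.

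**Figure D1:**
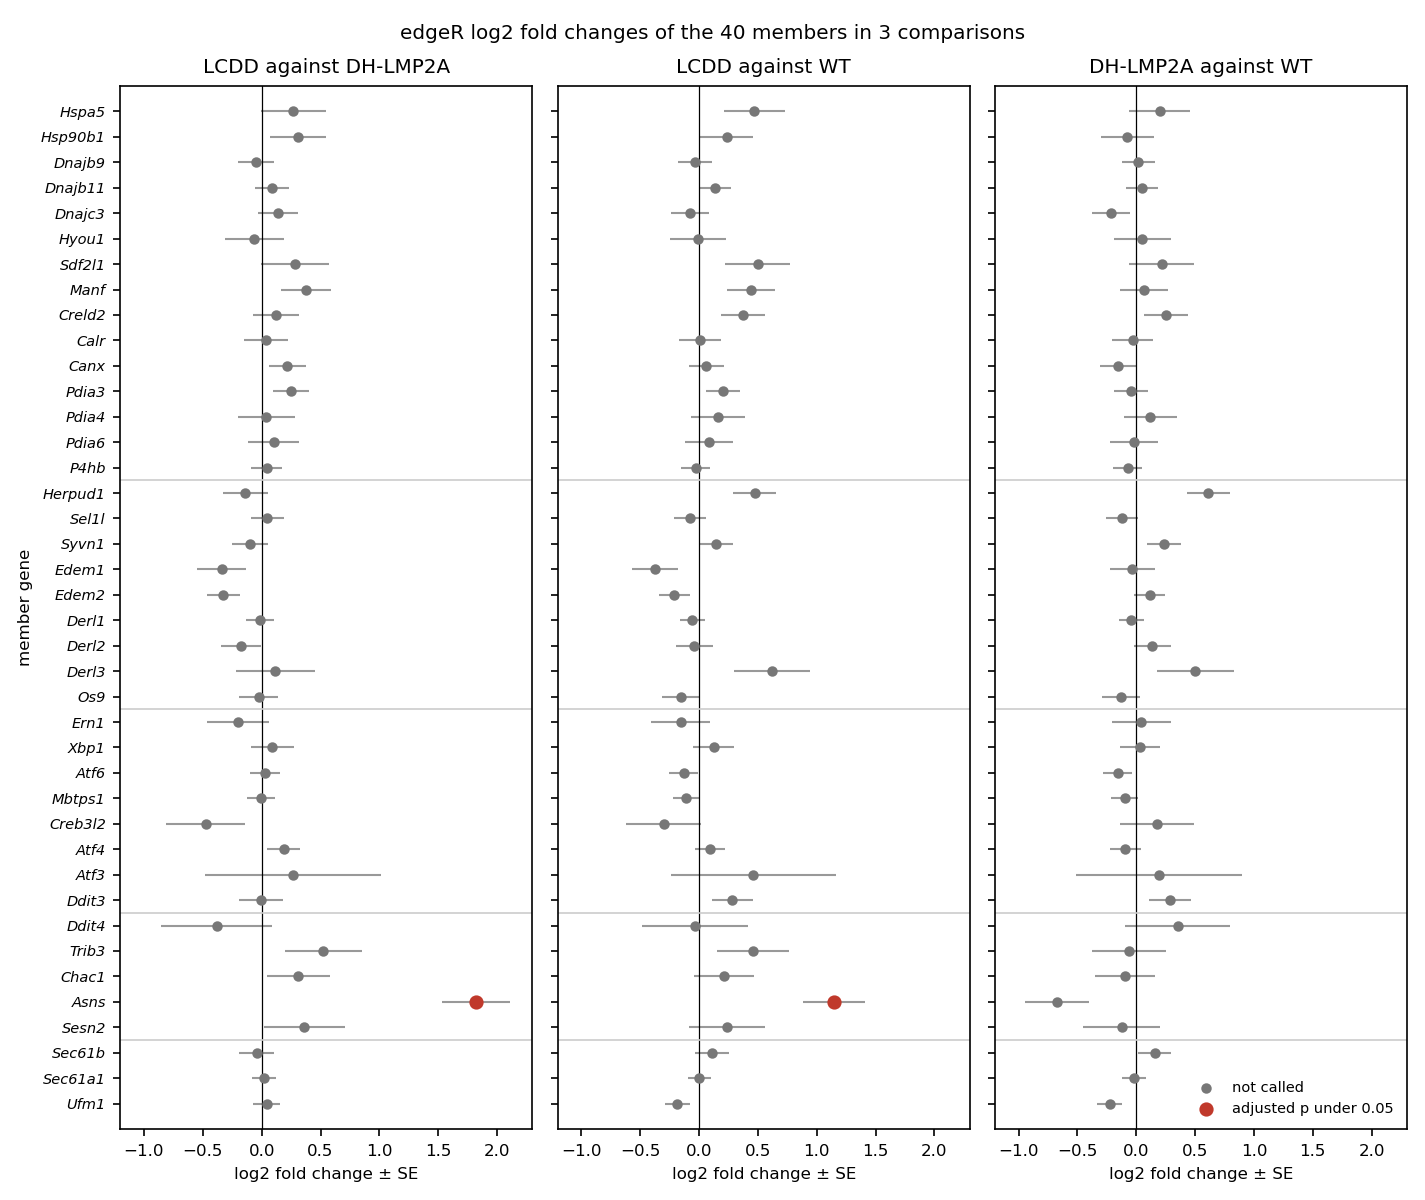
The log2 fold change (x axis, with its SE as a bar) of each of the 40 members (y axis, ordered by role) is plotted for the 3 comparisons, from the edgeR fit without the title code. Asns stands apart at 1.82 against DH-LMP2A and 1.15 against WT, the 2 red points that passed an adjusted p of 0.05, and every grey point missed it.

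The 5 stress output genes were led by Asns, which encodes asparagine synthetase, the enzyme that makes asparagine from aspartate. Asns stood at 15.2, 16.7, 12.6 and 6.98 CPM in LCDD replicates 1 to 4, at 5.16, 3.00, 2.91 and 3.49 CPM in DH-LMP2A and at 6.89, 5.13, 4.16, 6.00 and 6.85 CPM in WT. All 4 LCDD libraries lay above all 4 DH-LMP2A libraries, and they lay above all 5 WT libraries by a narrow margin in replicate 4. These levels rest on 177 to 444 reads per library in LCDD, 51 to 138 in DH-LMP2A and 83 to 213 in WT. No other member separated LCDD from either genotype without overlap. Among all genes 4.74% lay wholly higher in LCDD than in DH-LMP2A and 2.97% wholly higher than in WT.

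On the log2 scale, Asns was 1.82 ± 0.29 higher in LCDD than in DH-LMP2A (SE, edgeR, adjusted p = 0.0070). With the title code as a block the value was 1.80 and the adjusted p 0.0050 (edgeR). Within the codes the log2 differences were 1.55, 2.44, 2.08 and 0.98, higher in LCDD in 4 of 4 pairs. The weakest pair was that of code D. The call was kept without any 1 library, at log2 fold changes between 1.64 and 2.04. Of the alternatives run, it was lost only where the block and a podocyte marker score entered together, at 1.63 with an edgeR adjusted p of 0.150.

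Against WT the Asns difference was 1.15 ± 0.26 on the log2 scale (SE, edgeR, adjusted p = 0.045), close to the threshold. Within codes it was 1.13, 1.28 and 0.33, again lowest under code D. There, as for every gene, the WT value was the mean log2 CPM of the 3 single-mouse libraries. The call was lost without LCDD replicate 1, 2 or 3, without DH-LMP2A replicate 2, 3 or 4 and without WT replicate 2, 3, 4 or 5, with edgeR adjusted p between 0.0588 and 0.157 and log2 fold changes between 0.95 and 1.21. With the sex-linked genes as a covariate the log2 fold change was 1.05 (edgeR adjusted p = 0.562). The call was also lost with another scaling (RLE size factors), with either other filter on low counts, with only the genotypes compared, with the tubule or podocyte score, with any fit of the block and without the single-mouse WT libraries, at edgeR adjusted p between 0.0545 and 0.513. DESeq2 kept it, at 1.12 with an adjusted p of 0.0035. Between DH-LMP2A and WT, Asns gave -0.67 ± 0.27 (SE, edgeR, unadjusted p = 0.0281, adjusted p = 0.334), with overlapping libraries. All 26 cell cycle genes had higher values in LCDD than in either other genotype. Of the 12 mesangial markers 9 were higher and 3 lower in LCDD than in DH-LMP2A, and likewise against WT. Those called numbered 3 and 1, all higher in LCDD (edgeR, adjusted p under 0.05). Of the macrophage markers 14 of 14, and of the endothelial markers 11 of 12, were higher in LCDD than in DH-LMP2A (median log2 fold changes 0.84 and 0.49), with 3 of each list at an unadjusted p under 0.05 and 0 past the threshold in edgeR without the block. Adding the block, 2 macrophage markers passed. Against WT 5 of 14 and 3 of 12 were higher. The part of these lists in the Asns result was not tested. With the podocyte score alone as a covariate the value against DH-LMP2A was 1.57 (edgeR adjusted p = 0.0062).

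The other 4 stress output genes did not pass the test in any comparison. Trib3, a pseudokinase that curbs ATF4 and AKT signalling, was scarce at 13 to 38 reads. It measured 1.30, 1.05, 1.24 and 1.50 CPM in LCDD, 0.561, 0.556, 1.48 and 0.985 in DH-LMP2A and 1.04, 0.803, 1.12, 0.716 and 0.933 in WT. Its DH-LMP2A replicate 3 lay among the LCDD libraries, and the log2 fold change was 0.52 ± 0.33 against DH-LMP2A and 0.46 ± 0.31 against WT (SE, edgeR, adjusted p = 0.557 and 0.655). Chac1 encodes an enzyme that degrades glutathione. It was read at 2.84, 3.50, 3.72 and 4.34 CPM in LCDD, 2.77, 2.33, 3.65 and 2.87 in DH-LMP2A and 4.82, 2.66, 2.12, 2.51 and 3.37 in WT. Its highest library was WT replicate 1, and LCDD minus DH-LMP2A was 0.31 ± 0.27 on the log2 scale (SE, edgeR, adjusted p = 0.696). Sesn2, a stress-induced inhibitor of mTORC1, ranged from 7.20 to 19.2 CPM, and Ddit4, another mTORC1 inhibitor, from 13.9 to 89.0 CPM with its extremes both in WT.

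**Figure D2:**
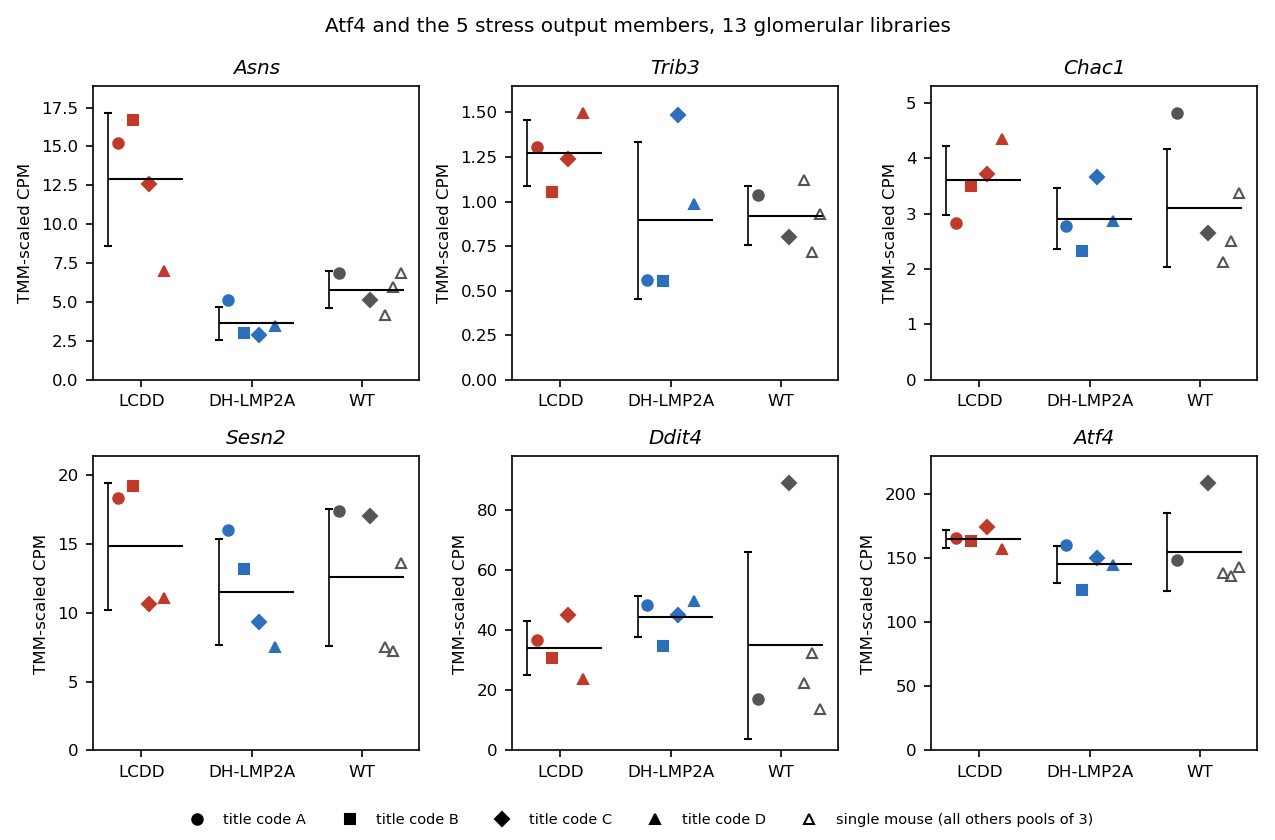
TMM-scaled CPM (y axes, from 0) of Atf4 and the 5 stress output members in each of the 13 libraries, by genotype (x axis) and title code (marker), with the mean as a line and the SD as a bar. The Asns panel shows the LCDD libraries at 6.98 to 16.7 CPM above DH-LMP2A at 2.91 to 5.16 CPM, while the genotypes overlap in the other 5 panels.

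Atf4 itself, the transcription factor of this branch, was nearly level among LCDD libraries at 165, 164, 174 and 157 CPM. In DH-LMP2A it measured 160, 125, 150 and 145 CPM, and in WT 149, 208, 138, 136 and 143 CPM. WT replicate 2 was the highest of all 13 libraries, and the difference of 0.19 ± 0.14 on the log2 scale between LCDD and DH-LMP2A missed the threshold (SE, edgeR, adjusted p = 0.637). ATF4 is controlled mostly at translation, which RNA levels do not show. Ddit3, which encodes CHOP and is a pro-death output of prolonged stress, stood at 32.8, 21.9, 36.2 and 33.7 CPM in LCDD, 37.8, 23.9, 31.0 and 32.3 in DH-LMP2A and 23.1, 33.3, 21.5, 24.9 and 25.3 in WT. LCDD and DH-LMP2A had the same mean of 31.2 CPM, and they differed from WT by 0.28 ± 0.18 and 0.29 ± 0.18 on the log2 scale (SE, edgeR, adjusted p = 0.615 and 0.536). Part of Ddit3, 3.97% of its exon length, overlaps Mars on the opposite strand, and the strand setting of the counting is not given in the sources used here.

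Atf3, an immediate early and stress factor, varied the most of the sensors and factors. It was read at 10.8, 50.4, 10.8 and 14.2 CPM in LCDD, 19.5, 12.7, 10.7 and 28.8 in DH-LMP2A and 40.3, 17.3, 3.24, 3.22 and 14.1 in WT. LCDD replicate 2 and WT replicate 1 were high, and WT replicates 3 and 4 were low, so the genotypes overlapped throughout. The 16 immediate early and heat shock genes summed to their highest level, 5894 CPM, in LCDD replicate 2 and to their lowest, 2037 and 2043 CPM, in WT replicates 4 and 3, and their part in the Atf3 values was not tested. LCDD minus WT was 0.46 ± 0.70 on the log2 scale (SE, edgeR, adjusted p = 0.907), and it was -0.44 without LCDD replicate 2.

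The IRE1 and ATF6 branch genes Ern1, Xbp1, Atf6 and Mbtps1 did not pass the test in any comparison. Ern1, which encodes IRE1, stood at 21.6, 36.4, 58.3 and 49.4 CPM in LCDD, 33.9, 48.2, 54.8 and 53.2 in DH-LMP2A and 32.2, 49.4, 51.7, 50.7 and 46.6 in WT. Its lowest 3 libraries were the 3 of code A, and LCDD minus DH-LMP2A was -0.20 ± 0.26 (log2, SE, edgeR, adjusted p = 0.809) and 0.016 without LCDD replicate 1. Xbp1, the factor that IRE1 splices, was counted over both splice forms together. It gave 248, 144, 247 and 230 CPM in LCDD, 223, 154, 219 and 220 in DH-LMP2A and 166, 207, 194, 232 and 198 in WT. Both libraries of code B were its lowest, and the LCDD minus DH-LMP2A and LCDD minus WT values were 0.09 ± 0.18 and 0.12 ± 0.17 (log2, SE, edgeR, adjusted p = 0.885 and 0.893). Atf6 measured 103, 118, 118 and 128 CPM in LCDD, 94.6, 112, 120 and 132 in DH-LMP2A and 109, 112, 140, 143 and 136 in WT. Its 3 single-mouse WT libraries were the highest, and DH-LMP2A minus WT was -0.16 ± 0.12 (log2, SE, edgeR, adjusted p = 0.624). Mbtps1, the protease that releases ATF6, was the steadiest of the group in LCDD at 179 to 191 CPM.

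Creb3l2 encodes a membrane-bound transcription factor of the ATF6 kind that supports secretory capacity. It measured 119, 180, 351 and 329 CPM in LCDD, 210, 329, 393 and 431 in DH-LMP2A and 180, 319, 336, 367 and 306 in WT. Under every code the LCDD library lay below the DH-LMP2A library, by -0.81, -0.87, -0.16 and -0.39 on the log2 scale, although the groups overlapped as a whole. The log2 fold change was -0.48 ± 0.34 without the code (SE, edgeR, adjusted p = 0.619) and -0.55 ± 0.14 with it as a block (SE, edgeR, adjusted p = 0.043). All 12 podocyte markers were lower in LCDD in the same comparison, 0 of them past the threshold without the block and 2 with it, and LCDD replicate 1 was lowest for Creb3l2, for Ern1 and for the podocyte sum. In the pools of 3 mice alone the block gave -0.56 (edgeR adjusted p = 0.128). With the podocyte score as a covariate the Creb3l2 value was -0.07 (edgeR adjusted p = 0.827), and with score and block together -0.17 (edgeR adjusted p = 0.944). That score itself differed by genotype: it was 7.80 and 8.76 in LCDD replicates 1 and 2, against 9.06 to 10.1 in DH-LMP2A. LCDD replicates 3 and 4 lay within the DH-LMP2A range. The part of the podocyte markers in the Creb3l2 and Ern1 values was not tested.

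Among the 15 chaperones and folding enzymes none passed the test in the fits without the block. Of these, 13 had a positive log2 fold change against DH-LMP2A and 11 against WT, with medians of 0.12 and 0.14. Hspa5, the master chaperone BiP, stood at 1266, 808, 1191 and 1641 CPM in LCDD, 826, 613, 1214 and 1418 in DH-LMP2A and 696, 882, 803, 1005 and 1044 in WT. LCDD replicates 1, 3 and 4 lay above every WT library and replicate 2 did not. The log2 fold changes were 0.27 ± 0.27 against DH-LMP2A, 0.47 ± 0.26 against WT and 0.20 ± 0.26 for DH-LMP2A against WT (SE, edgeR, adjusted p = 0.747, 0.543 and 0.788). Within codes LCDD exceeded WT by 0.86, 0.43 and 0.80 on the log2 scale. Hsp90b1, the ER form of HSP90, gave 1248, 1002, 1019 and 1406 CPM in LCDD, 674, 729, 1048 and 1323 in DH-LMP2A and 889, 701, 1176, 1131 and 1070 in WT. Its values overlapped among genotypes, at 0.31 ± 0.24 against DH-LMP2A and 0.23 ± 0.23 against WT (log2, SE, edgeR, adjusted p = 0.657 and 0.812). Exons of 1810014B01Rik, a gene at 2.44 CPM, cover 10.3% of its length on the opposite strand.

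The 3 small ER proteins Sdf2l1, Manf and Creld2, all targets of the response, did not pass in the fits without the block either. Sdf2l1, a partner of BiP in protein folding, measured 29.7, 18.2, 32.0 and 38.7 CPM in LCDD, 20.1, 12.9, 33.6 and 31.2 in DH-LMP2A and 16.1, 25.9, 17.6, 22.7 and 22.6 in WT. The code B libraries were low in both genotypes that have one, and the log2 fold changes were 0.28 ± 0.29 against DH-LMP2A and 0.50 ± 0.28 against WT (SE, edgeR, adjusted p = 0.751 and 0.545). Manf, a secreted factor that protects stressed cells, measured 127, 64.9, 92.3 and 98.2 CPM in LCDD, 92.0, 49.4, 75.6 and 77.0 in DH-LMP2A and 65.4, 64.6, 57.5, 86.4 and 77.6 in WT. LCDD exceeded DH-LMP2A under all 4 codes by 0.46, 0.39, 0.29 and 0.35, and the log2 fold changes were 0.38 ± 0.21 against DH-LMP2A and 0.44 ± 0.20 against WT (SE, edgeR, adjusted p = 0.505 and 0.413). Creld2, an ER protein with disulfide isomerase activity, measured 58.9, 43.3, 61.6 and 71.8 CPM in LCDD, 48.3, 39.5, 66.0 and 62.7 in DH-LMP2A and 37.8, 49.0, 36.5, 46.3 and 57.5 in WT. It gave 0.38 ± 0.19 for LCDD against WT (log2, SE, edgeR, adjusted p = 0.475), and within codes 0.64, 0.33 and 0.64. Each of the 3 overlapped between LCDD and WT through LCDD replicate 2, the code B library that has no WT counterpart.

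The remaining chaperones were Calr and Canx, the lectins that hold glycoproteins during folding, the disulfide isomerases P4hb, Pdia3, Pdia4 and Pdia6, the BiP co-chaperones Dnajb9, Dnajb11 and Dnajc3, and Hyou1, which exchanges nucleotide on BiP. Their group means lay close together: Calr averaged 880 CPM in LCDD, 857 in DH-LMP2A and 875 in WT, and P4hb 584, 566 and 595 CPM. Hyou1 averaged 259, 270 and 261 CPM, yet its libraries ran from 164 to 346 CPM. Those 10 genes had edgeR adjusted p of at least 0.538 in every comparison.

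**Figure D3:**
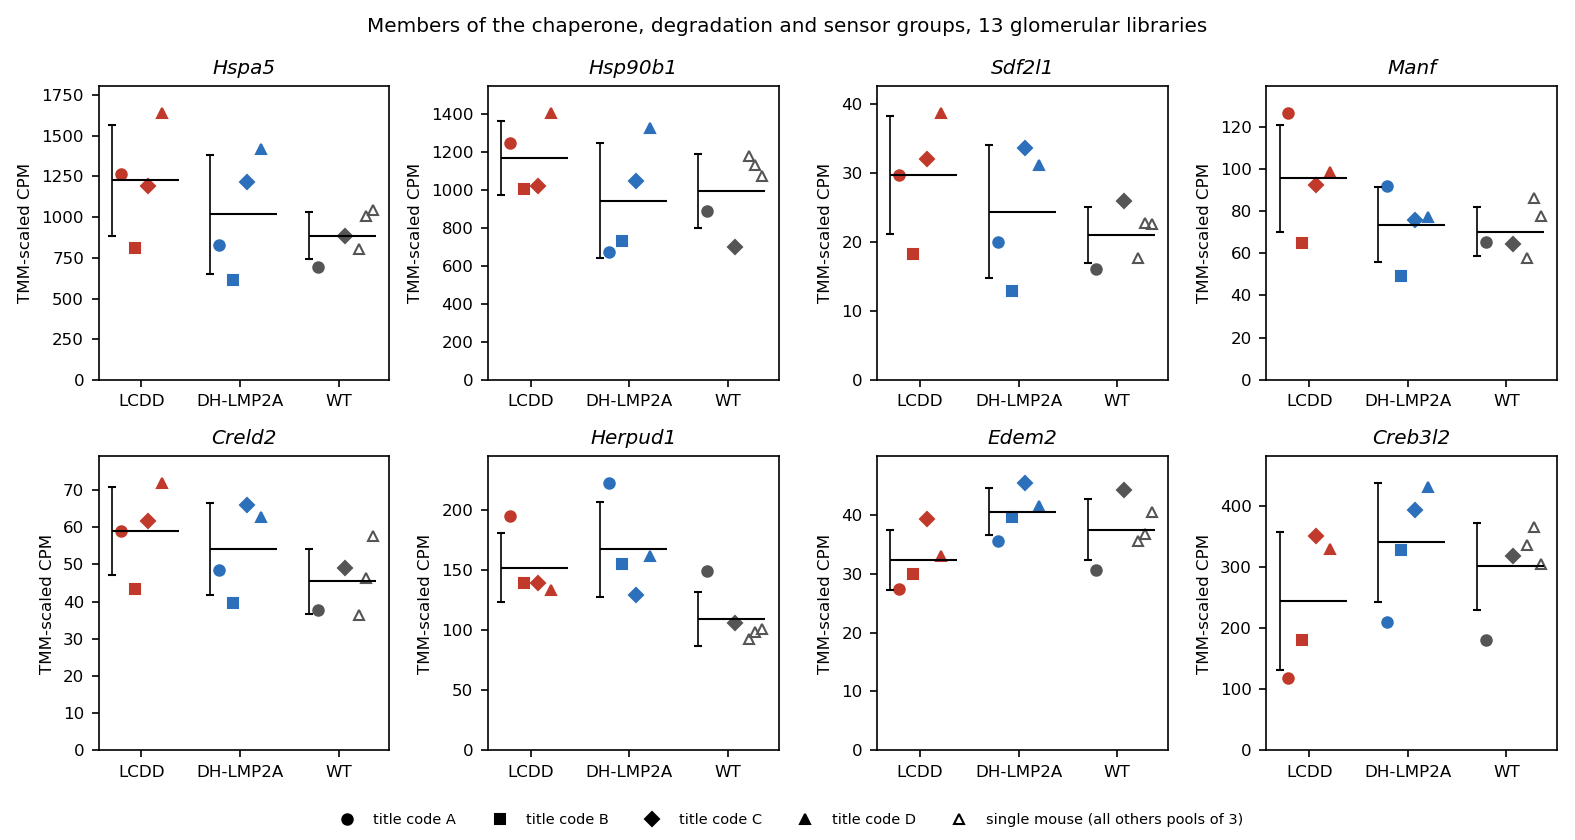
TMM-scaled CPM (y axes, from 0) of 8 members in each of the 13 libraries, by genotype (x axis) and title code (marker), with the mean as a line and the SD as a bar. Hspa5 and Sdf2l1 are low in both squares of code B, Herpud1 is lower in 4 of the 5 WT libraries (92.9 to 106 CPM) than in any LCDD or DH-LMP2A library, and Edem2 and Creb3l2 lie lower in LCDD than in DH-LMP2A for each marker shape.

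Of the 9 degradation genes, Herpud1 had the smallest unadjusted p, and its lowest levels were in WT. Herpud1 encodes a membrane protein that assembles the degradation complex. It measured 194, 139, 139 and 133 CPM in LCDD, 222, 155, 129 and 162 in DH-LMP2A and 149, 106, 92.9, 98.1 and 101 in WT. WT replicate 1, of code A, overlapped with the others, and the remaining WT libraries lay below all 8. DH-LMP2A exceeded WT by 0.61 ± 0.18 on the log2 scale (SE, edgeR, unadjusted p = 0.0052, adjusted p = 0.179) and LCDD exceeded WT by 0.47 ± 0.18 (SE, edgeR, unadjusted p = 0.0224, adjusted p = 0.281). Without WT replicate 1 the first of these passed, at 0.75 with an edgeR adjusted p of 0.040. Within codes it was 0.58, 0.29 and 0.73 for DH-LMP2A and 0.39, 0.40 and 0.46 for LCDD, and both comparisons use the same WT libraries. The proximal tubule markers were higher in DH-LMP2A than in WT for 18 of 18 genes. Of these 3 were called, where 0.627% of all genes were called. With the tubule score as a covariate the DH-LMP2A value of Herpud1 was 0.29 (edgeR adjusted p = 0.360). The part of these markers in the Herpud1 values was not tested. Over 25 alternatives Herpud1 was called in 4 for DH-LMP2A and in 1 for LCDD against WT. With the sex score as a covariate it was called in neither comparison. The adjusted p (edgeR or DESeq2) rose as high as 0.964 and 0.967, and the direction was kept in all 25.

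Edem2, a mannosidase-like protein that marks glycoproteins for degradation, measured 27.4, 29.9, 39.2 and 32.9 CPM in LCDD, 35.6, 39.7, 45.3 and 41.5 in DH-LMP2A and 30.6, 44.1, 35.6, 36.7 and 40.4 in WT. It was lower in LCDD under 4 of 4 codes, by -0.37, -0.41, -0.21 and -0.33 on the log2 scale. The fold change was -0.32 ± 0.14 without the code (SE, edgeR, unadjusted p = 0.0351, adjusted p = 0.326) and -0.33 ± 0.08 with it as a block (SE, edgeR, adjusted p = 0.031). With the block and the podocyte score together it was again -0.33 (edgeR adjusted p = 0.434), and with the block in the pools of 3 mice alone -0.35 (edgeR adjusted p = 0.112). The Edem2 value ranged from -0.43 to -0.19 over 25 alternatives and was called in 1 of them, the block. Edem1, its paralogue, was also lower in LCDD under 4 of 4 codes, at a mean of 99.6 CPM against 126 CPM, with an edgeR adjusted p of 0.539 without and 0.0958 with the block. Derl3, a channel protein with high levels in secretory tissues, was scarce at 13 to 46 reads. It measured 1.07, 0.828, 1.02 and 1.81 CPM in LCDD, 0.973, 0.630, 1.37 and 1.43 in DH-LMP2A and 0.874, 1.05, 0.721, 0.582 and 0.649 in WT. LCDD and DH-LMP2A exceeded WT by 0.62 ± 0.32 and 0.50 ± 0.32 (log2, SE, edgeR, adjusted p = 0.512 and 0.554). Its relatives Derl1 and Derl2, the ubiquitin ligase Syvn1 with its partner Sel1l, and the lectin Os9 did not pass in any fit. Plasma cells, which rely on this pathway, were sought with 13 markers: their sum was 83.1 to 172 CPM in LCDD, 74.0 to 136 in DH-LMP2A and 111 to 172 in WT, mostly from Sdc1 and Prdm1. Of the 12 tested, 10 were lower in LCDD than in WT and 10 lower in DH-LMP2A than in WT, with median log2 fold changes of -0.89 and -0.78 and 1 called in each. That gene was Jchain, the joining chain of secreted antibodies, at a mean of 1.04 CPM in LCDD, 0.812 in DH-LMP2A and 8.70 in WT (edgeR adjusted p = 0.0194 and 0.0295). The part of these markers in the members' values was not tested. Tnfrsf17 had at most 3 reads in any library and was at 0 in all 4 DH-LMP2A libraries.

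The translocation channel and UFM1 genes held the steadiest levels of the 5 role groups, with a median SD of log2 CPM of 0.17 over the 13 libraries. Sec61a1, the channel's pore subunit, averaged 184 CPM in LCDD, 181 in DH-LMP2A and 184 in WT. Sec61b, a small subunit of the same channel, measured 37.9, 31.1, 31.6 and 30.8 CPM in LCDD, 35.7, 25.2, 40.9 and 33.7 in DH-LMP2A and 29.3, 36.7, 25.7, 31.2 and 29.1 in WT. DH-LMP2A minus WT was 0.16 ± 0.14 (log2, SE, edgeR, adjusted p = 0.687). Ufm1, a ubiquitin-like modifier of ribosomes at the ER, measured 77.2, 66.7, 58.5 and 59.8 CPM in LCDD, 67.3, 61.5, 61.2 and 64.8 in DH-LMP2A and 76.4, 60.7, 77.6, 81.4 and 76.5 in WT. All WT libraries but replicate 2 lay above all DH-LMP2A libraries, with a difference of -0.23 ± 0.11 (log2, SE, edgeR, unadjusted p = 0.0535, adjusted p = 0.413).

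In most members more of the spread lay between title codes than between genotypes. For each gene the share of the spread of log2 CPM lying between codes was set beside the share lying between genotypes, each taken alone, so that the shares need not add up. There are more codes than genotypes: a grouping unrelated to expression would hold 25% of the spread on average as 4 codes and 16.7% as 3 genotypes. The median share was 53.5% for the code and 16.3% for the genotype over the 40 members, and 40.7% and 19.9% over all genes tested. The code's share was the larger in 36 of 40 members (90%) and in 70.2% of all genes. Among the exceptions, Asns had 78.6% of its spread between genotypes and 10.1% between codes, and Trib3, Chac1 and Derl3 were the other three. Atf6, Hyou1 and Ern1 had the largest code shares, at 88.0%, 87.8% and 80.5%. LCDD replicate 4 was the highest of the 13 libraries for 12 members, 9 of them chaperones, and DH-LMP2A replicate 2 the lowest for 12 members, 8 of them chaperones. Over the 13 libraries the members' SD of log2 CPM had a median of 0.27, against 0.35 for all genes tested.

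**Figure D4:**
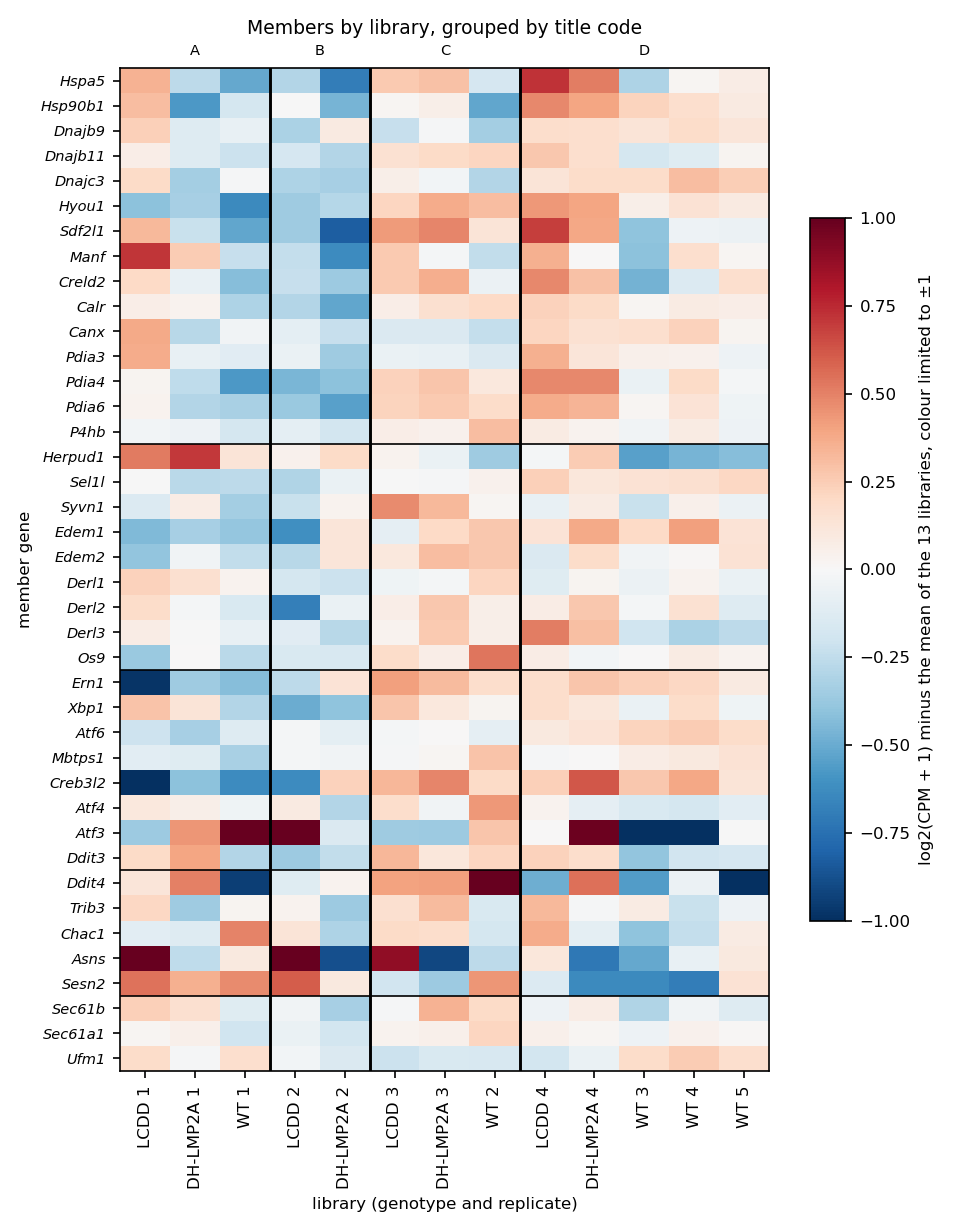
Each cell is the log2(CPM + 1) of a member (rows, by role) in a library (columns, by title code) minus that member's mean over the 13 libraries, with colours limited to 1 either way. The chaperone rows are mostly blue in both libraries of code B and red in LCDD and DH-LMP2A replicate 4 of code D, and the Asns row is red in LCDD replicates 1 to 3.

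**Figure D5:**
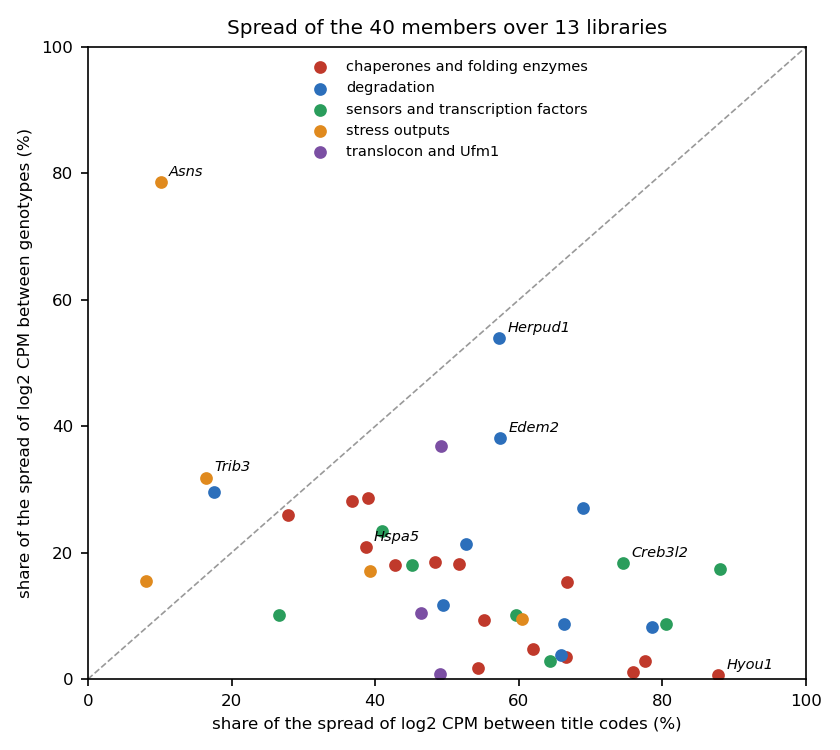
Each point is 1 of the 40 members, placed by the share of its spread of log2 CPM between title codes (x axis, %) and between genotypes (y axis, %), with the line of equal shares dashed. 36 members lie below the line, and Asns stands alone at 10.1% and 78.6%.

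Within codes each LCDD library was set against the DH-LMP2A library of its code. For WT the mean log2 CPM under the code was used, which under code D averages 3 single-mouse libraries. LCDD exceeded DH-LMP2A under all 4 codes for 8 of 40 members (20%) and lay below it for 4 (10%), where 17.6% and 16.2% of all genes did so. The 8 were Asns, Chac1, Sesn2, Atf4, Manf, Pdia3, Canx and P4hb, and the 4 were Edem1, Edem2, Creb3l2 and Ddit4. LCDD exceeded WT under the 3 codes with WT libraries for 17 members (42.5%) and lay below for 2, Edem1 and Edem2, where 17% and 14.3% of all genes did so. The 17 held the chaperones and folding enzymes Hspa5, Hsp90b1, Sdf2l1, Manf, Creld2, Dnajb9, Canx, Pdia3, Pdia4 and Pdia6, beside Asns, Trib3, Ddit3, Xbp1, Herpud1, Derl2 and Syvn1. DH-LMP2A exceeded WT under the same codes for 17 members (42.5%) and lay below for 3, where 18.8% and 13.4% of all genes did so. Both lists of 17 held Hspa5, Sdf2l1, Manf, Creld2, Pdia3, Pdia4, Pdia6, Herpud1, Xbp1, Derl2 and Syvn1. The DH-LMP2A list also held Hyou1, Ern1, Creb3l2, Edem2, Derl3 and Sec61b, and the 3 below were Asns, Sesn2 and Sel1l. The last 2 comparisons share the WT libraries, so their counts are not separate evidence, and pairing by code was less clear for those libraries. In both of them genotype and sex can hardly be told apart.

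Per kilobase of exon the folding enzymes were the most abundant members. Calr led at 302 CPM per kb averaged over the 13 libraries, then Hsp90b1 at 256, Hspa5 at 244, P4hb at 204 and Pdia3 at 185 CPM per kb. Atf4 and Xbp1 were the most abundant transcription factors, at 89.9 and 63.5 CPM per kb. Ern1 reached 5.52, Asns 2.68, Chac1 1.95, Derl3 0.75 and Trib3 0.48 CPM per kb, the lowest part of the range.

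A further 147 genes of the same pathway were listed by role, and 126 of the 129 found in the table were tested. Against DH-LMP2A 0 of the 126 were called by edgeR without the block, with 9 at an unadjusted p under 0.05. Over all genes those shares were 2% and 13.1%. The block called 2 of the 126, where 6.1% of all genes were called. Slc7a5, a transporter of large neutral amino acids and an ATF4 target, averaged 4.85 ± 2.76 CPM (SD, n = 4) in LCDD and 1.50 ± 0.65 (SD, n = 4) in DH-LMP2A. Its log2 fold change was 1.69 ± 0.43 without and 1.56 with the block (SE, edgeR, adjusted p = 0.0658 and 0.0497). Slc6a9, a glycine transporter also listed as an ATF4 target, was lower in LCDD with the block, at -0.45 (edgeR adjusted p = 0.0354, and 0.120 without it). Of the 22 ATF4 targets tested in this further list, 13 were higher and 9 lower in LCDD than in DH-LMP2A. Their median log2 fold change was 0.16 without the block. Against WT 0 of the 126 were called by edgeR without the block, with 7 at an unadjusted p under 0.05. Over all genes those shares were 1.84% and 12%. Between DH-LMP2A and WT, Slc6a9 was the 1 gene called, where 0.627% of all genes were called. It stood at 17.8 ± 1.68 against 11.2 ± 1.52 CPM (SD, n = 4 and 5) and 0.67 ± 0.13 on the log2 scale (SE, edgeR, adjusted p = 0.0367). That call was lost without LCDD replicate 2 or 4, DH-LMP2A replicate 2, 3 or 4 or WT replicate 3, 4 or 5, with edgeR adjusted p between 0.0529 and 0.149. The list's median log2 fold changes were 0.07, 0.01 and -0.07 in the 3 comparisons. The PERK gene Eif2ak3 averaged 51.9 CPM in LCDD, 54.7 in DH-LMP2A and 56.3 in WT.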

How the data were processed

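For 13 libraries, the authors deposited unnormalized read counts per gene, made with STAR 2.4.0a and featureCounts (Subread 1.5.0-p3) on mm10/GRCm38, with DESeq2 also named, per the submitters' processing notes. The kit marks strand, per the labels' protocols. How strand and multiply matching reads were treated, and which annotation was used, are not given in the sources used here. All 40 members matched GENCODE M21 by symbol, span and strand. Symbols that read as dates (27) or were duplicated (2) were left as found, and 0 sample columns were unused.

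Genes were tested in R 4.3.3 with edgeR 4.0.16 (quasi-likelihood, TMM scaling, filterByExpr with a minimum count of 10). This kept 16738 genes, the 40 members among them, and dropped 30220. The 13 libraries entered 1 fit with genotype as the only term, and p-values were adjusted over all genes tested. SE is the absolute log2 fold change over the square root of F. CPM per kb divides by the deposited exon length. The steps were tested on simulated data. Pairs of libraries of 1 genotype differed by more than sampling noise (chi-square per degree of freedom 12.6 to 233.9 over 22 pairs). A floor of 3 counts is 0.0981 to 0.180 CPM and covers counting error only, as there are no molecular identifiers.

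The title code, shared by libraries of different genotypes, was checked as a pairing. Deviations from the genotype means correlated between LCDD and DH-LMP2A libraries of the same code in 4 of 4 pairs (mean 0.42, lowest 0.15). The block is therefore given beside that comparison. Other pairs averaged -0.14, which follows from the positive mean because deviations cancel within each genotype. LCDD replicate 2 and DH-LMP2A replicate 4 correlated better with a library of another code (0.52 and 0.46) than with their own (0.15 and 0.45). The members and gene lists were chosen with earlier results of these data known. Members named with values are those called without or with the block, the 2 with the smallest p in each role group and 16 set by name, 20 in all. Slc7a5 and Slc6a9 were named because they were called. The alternatives were DESeq2 1.42.0, RLE size factors, other filters on low counts, only the genotypes compared, the block, marker scores as covariates, and leaving out libraries. The podocyte score, alone or with the block, and the block in pools of 3 mice alone were chosen after seeing the data.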

Additional observations from a re-analysis of the deposited data

Results flagged for a closer look

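In 141 groups of 4 or 5 values (each member's log2 CPM in each genotype, the summed role lists and the total counts), the highest or lowest library stood apart from its group in 17, where chance gives about 7.05. The groups are not independent, since the summed lists hold the same members and 1 library can stand apart for several members. WT replicate 1 stood low for Hyou1 (log2 CPM 7.36, the other WT libraries 8.06 to 8.31), Ern1 (5.01) and Creb3l2 (7.50), and high for Herpud1 (7.22). LCDD replicate 1 stood high for Herpud1 (7.60) and Sec61b (5.25) and low for Mbtps1 (7.49, the others 7.57 to 7.58). LCDD replicate 2 stood low for Derl2 (5.34) and Xbp1 (7.17). DH-LMP2A replicate 2 stood low for Xbp1 (7.26) and Sec61a1 (7.33), and DH-LMP2A replicate 3 high for Syvn1 (6.42). WT replicate 2 stood high for Atf4 (7.70, the others 7.09 to 7.22) and low for Ufm1 (5.93).

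The summed CPM of the 5 stress output members was 115 in WT replicate 2, where the other WT libraries held 37.5 to 48.7, and 47.7 in LCDD replicate 4, where the other LCDD libraries held 71.3 to 74.5. The total of LCDD replicate 3 was 18604929 counts, below the 25276687 to 26544422 of the other LCDD libraries.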

How the results depend on the processing

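Asns kept its direction in LCDD against both other genotypes under every alternative run. Its call against DH-LMP2A rests on neither a scaling nor a single library, and its call against WT is at the threshold. RLE size factors moved the median of all genes by at most 0.03 (log2). Low counts limit Trib3 and Derl3, which had 13 to 46 reads.

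Genes called numbered 334 for LCDD against DH-LMP2A, 308 for LCDD against WT and 105 for DH-LMP2A against WT. In that order they were 812, 726 and 458 with DESeq2, 153, 116 and 54 where genes averaged 5 CPM or more, 1021, 536 and 562 with the replicate block, 910, 193 and 549 with the tubule score, and 66, 78 and 479 with the block and the podocyte score. With only the genotypes compared they were 213 and 185 for the LCDD comparisons. For the comparisons with WT they were 33 and 17 with the sex score, 54 and 69 without the single-mouse WT libraries and 53 and 40 with the block in pools of 3 mice alone, and the podocyte score gave 743 for DH-LMP2A against WT. Leaving out 1 library gave 113 to 484, 159 to 441 and 29 to 407. Against DH-LMP2A, LCDD had 186 and 173 calls without LCDD replicates 1 and 2 and 113, 114 and 132 without DH-LMP2A replicates 2, 3 and 4. Against WT, LCDD had 169, 159 and 165 without WT replicates 3, 4 and 5. DH-LMP2A against WT had 29, 35 and 50 without DH-LMP2A replicates 2, 3 and 4 and 407, 33, 43 and 41 without WT replicates 1, 3, 4 and 5.

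Members called for LCDD against DH-LMP2A were 1 in the main analysis and under each left-out library (1 to 1), 3 with the block, 1 with the block in pools of 3 mice alone and 0 with the block and the podocyte score. For LCDD against WT they were 1, and 0 with RLE size factors, no filter, the 5 CPM filter, only the genotypes compared, the tubule, sex or podocyte score, without the single-mouse WT libraries, with block and podocyte score, and with the block in pools of 3 mice, and 0 to 1 with 1 library left out. For DH-LMP2A against WT they were 0, 1 with the podocyte score alone or with the block, and 0 to 1 with 1 library left out (Herpud1, without WT replicate 1).

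In the WT comparisons same-code correlations averaged 0.21 (lowest -0.16) with LCDD and 0.30 (lowest -0.16) with DH-LMP2A. Other pairs averaged -0.07 and -0.09, which follows because deviations cancel within each genotype. Not every library correlated best with its own code. The replicate block there called 4 members in LCDD against WT, Hspa5 (0.74, edgeR adjusted p = 0.0199), Sdf2l1 (0.76, 0.0157), Manf (0.59, 0.0461) and Herpud1 (0.44, 0.0265), left Asns at 0.99 (0.0750) and Creld2 at an adjusted p of 0.0505, and called 1 member, Herpud1 (0.57, 0.0116), in DH-LMP2A against WT, where 3.2% and 3.36% of all genes were called. Of the further pathway genes it called Psat1 (0.79, 0.0366), Ufsp1 (0.61, 0.0337) and Cars (0.32, 0.0490) in LCDD against WT.

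Uncalled log2 fold changes that changed sign were Hspa5 in DH-LMP2A against WT (-0.0028 without DH-LMP2A replicate 4, leave-one-out range to 0.38), Xbp1 in LCDD against DH-LMP2A (-0.022 without DH-LMP2A replicate 2, range to 0.22), Ern1 in the same comparison (0.11 with the podocyte score, 0.11 with block and score, 0.016 without LCDD replicate 1, range from -0.41), Atf6 in DH-LMP2A against WT (0.064 with the tubule score, 0.026 without the single-mouse WT libraries) and Atf3 in LCDD against WT (-0.16 with the tubule score, -0.46 without the single-mouse WT libraries, -1.11 with the block in pools of 3 mice, -0.44 without LCDD replicate 2, range to 1.20). The cause was not tested.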
